A study of Homo sapiens with 24 samples.

Results

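The RNAs described here are 6 long noncoding RNAs: MALAT1, NEAT1, KCNQ1OT1, TUG1, PVT1 and OIP5-AS1. They were taken by symbol from the exon count table, where they are 6 of 60308 genes. The intron count table, which holds 37473 genes, lists 2 of them, PVT1 and OIP5-AS1, and 1 of these, PVT1, had intron counts above 0. All 6 passed the filter on low values, a mean of at least 1 CPM (the count scaled to the library total) over the libraries, which left 17666 genes to test.

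Long noncoding RNAs are transcripts that do not encode a protein, and many of them stay in the nucleus after they are made. MALAT1 is an abundant, unspliced transcript of nuclear speckles, the bodies in which splicing factors gather. NEAT1, the neighbour of MALAT1, is the scaffold of paraspeckles, nuclear bodies that hold proteins such as NONO and SFPQ. KCNQ1OT1 is made antisense to an intron of the potassium channel gene KCNQ1, stays on chromatin and silences imprinted genes beside it. PVT1, next to the MYC oncogene, is spliced into many isoforms, TUG1 is found in the nucleus and in the cytoplasm, and OIP5-AS1, also called cyrano, is mostly cytoplasmic. The comparison of MALAT1 with NEAT1 and KCNQ1OT1 asks whether RNAs known as nuclear were found in the same cytoplasmic fraction.

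U2OS cells, a human osteosarcoma line, were lysed after 4 treatments, and RNA of a soluble and an insoluble cytoplasmic fraction was sequenced after rRNA depletion, with 3 replicates in each of 8 groups. Ctrl cells had 0.12% DMSO for 2 h, NaAsO2 cells had 500 µM sodium arsenite for 60 min, RK-33 cells had 6 µM of RK-33, and Combo cells had both, with RK-33 given 1 h before the arsenite. Sodium arsenite causes oxidative stress and stress granules, and RK-33 inhibits the ATPase of the RNA helicase DDX3. Per the study's methods, nuclei were removed by a slow spin, and a faster one then gave a supernatant, the soluble fraction, and a pellet enriched for stress granules and P-bodies, the insoluble fraction. No nuclear library was analysed here, so nuclear retention itself was not measured, and all 24 libraries come from 1 cell line.

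Exon plus intron counts were 10968059 to 19799530 per library. In CPM over the libraries, the osteoblast genes COL1A1, SPARC and RUNX2 had means of 1550, 1473 and 65.0, and the epithelial CDH1 and EPCAM and the endothelial PECAM1 had 5.01, 3.55 and 1.89. These were the 3 highest of 8 osteoblast genes and of 8 genes of other cells, of which 5 and 4 were tested. The osteoblast genes COL1A2, IBSP and BGLAP were not, with at most 19, 3 and 10 counts in a library. Replicate 3 of the NaAsO2 insoluble group stood apart, since RN7SL1, the RNA of the signal recognition particle, took 5.79% of its exon counts against 0.426% to 1.23% in the other insoluble and 7.51% to 15.5% in the soluble libraries. Many results are also given without this library, and values printed without such a line may still shift when it is left out.

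MALAT1 (chr11:65497688-65506516), NEAT1 (chr11:65422774-65445540), KCNQ1OT1 (chr11:2608328-2699994, minus strand, inside KCNQ1) and TUG1 (chr22:30969245-30979395) are 1 exon block each in GENCODE release 40 on GRCh38, because the merged exons of their isoforms leave no intron. PVT1 has 59 exon blocks and 363901 intron bases, and OIP5-AS1 (chr15:41283990-41309737) has 10 blocks. All 13075 intron bases of OIP5-AS1 lie within another gene of the same strand, and its intron count was 0 in all 24 libraries. The exon lengths are 8829 bases for MALAT1, 22767 for NEAT1, 91667 for KCNQ1OT1, 10151 for TUG1, 25320 for PVT1 and 12673 for OIP5-AS1, all above the median of 4745 bases over the tested genes. Their GC content was 40.3% to 47.2%, below the median of 47.6% in each case.

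MALAT1 and the long isoform of NEAT1 are known to end without a poly(A) tail. RNase P cuts the transcript, and U-rich and A-rich stretches near the new end fold together and protect it. Both ends are printed because MALAT1 and long NEAT1 share this feature, while the 2 genes differ in their distribution between the fractions. The exon counts of NEAT1 pool its isoforms. The windows are read from GRCh38, plus strand, 5′ to 3′, as DNA letters; MALAT1 is chr11:65505997-65506116, which ends 400 bases before the annotated gene end, and NEAT1 is chr11:65445421-65445540, which ends with the gene. Capitals mark the longest run common to both windows, 16 bases, and the A-rich tract that ends each window. They were not set to mark every stretch that takes part in the fold.
MALAT1: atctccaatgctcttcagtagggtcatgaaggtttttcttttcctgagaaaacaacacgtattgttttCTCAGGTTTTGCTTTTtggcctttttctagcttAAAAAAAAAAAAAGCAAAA
NEAT1: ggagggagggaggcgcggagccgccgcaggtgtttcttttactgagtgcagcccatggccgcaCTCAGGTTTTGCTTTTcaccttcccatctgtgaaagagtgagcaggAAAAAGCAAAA

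The run of A bases before GCAAAA is 13 bases long in MALAT1 and 5 in NEAT1, and 17 and 30 bases lie between the common run and the A-rich tract. The letters AAAAAGCAAAA, which end both windows, were searched on the transcript's strand in the last 450 bases of each gene. They occurred in 44 of 17666 tested genes (0.249%). MALAT1 and NEAT1 are among these by the choice of letters and window, so their match is not a result. None of the other RNAs described here had the letters.

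MALAT1 was among the most abundant RNAs of the libraries, ranking 4 of 17666 by its mean of 7003 CPM, and NEAT1 ranked 51 with 1056 CPM. PVT1 ranked 999, TUG1 1180, OIP5-AS1 3266 and KCNQ1OT1 4687. Per length, in TPM, the exon counts per length scaled to the same total in every library, the first 3 places were held by MALAT1, NEAT1 and TUG1 and the last by KCNQ1OT1 in all 8 groups. In the Ctrl soluble fraction the TPM were 2994 ± 746 for MALAT1, 44.4 ± 11.3 for NEAT1, 36.1 ± 5.21 for TUG1, 13.4 ± 1.15 for OIP5-AS1, 9.90 ± 1.99 for PVT1 and 0.377 ± 0.037 for KCNQ1OT1 (SD, n = 3). NEAT1 and TUG1 overlapped there, and the other neighbours in the order did not. In the Ctrl insoluble fraction they were 3061 ± 442, 342 ± 39.0, 66.1 ± 0.82, 19.7 ± 0.56, 43.9 ± 2.84 and 2.71 ± 0.15 in the same order of RNAs, and no neighbours overlapped. PVT1 stood above OIP5-AS1 per length in that fraction and below it in the soluble one.

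**Figure D1:**
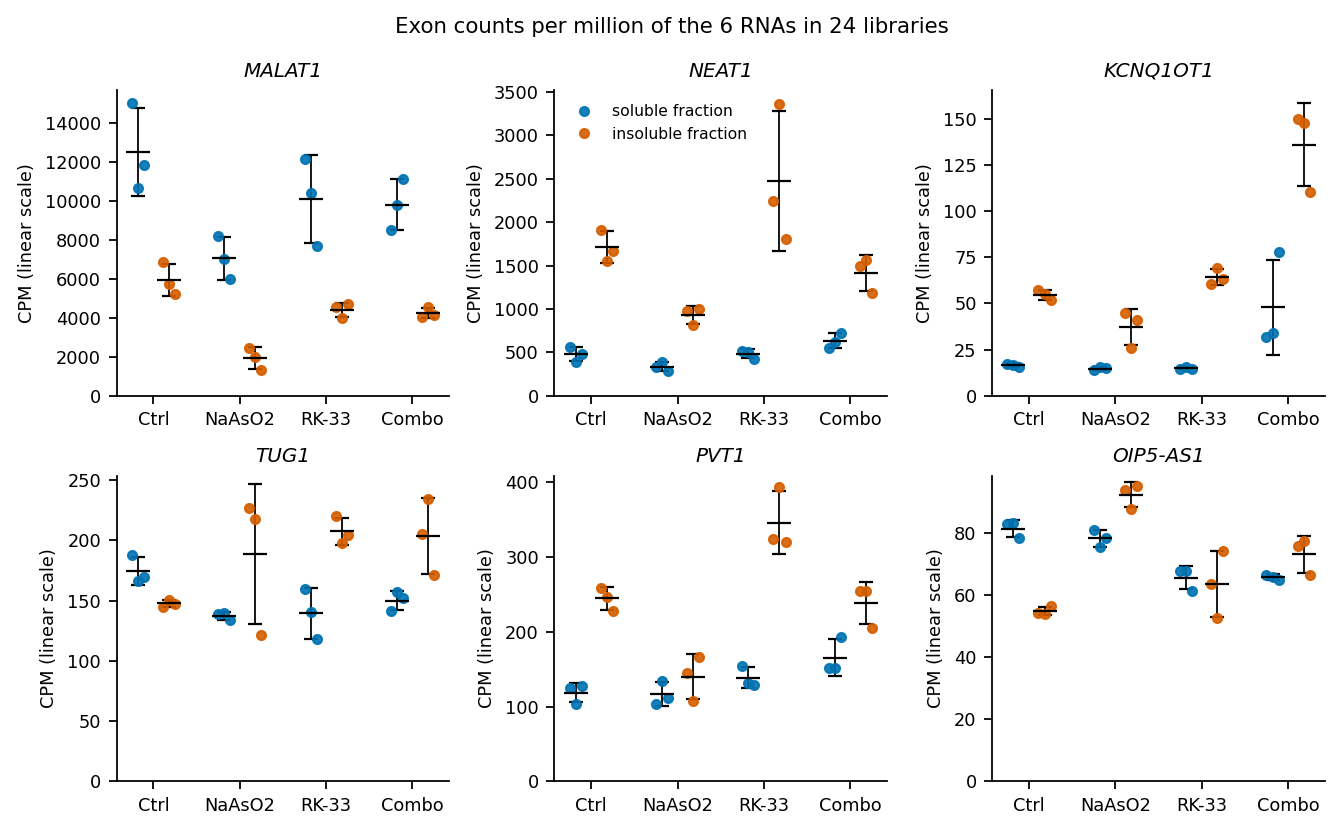
Exon CPM after TMM scaling (linear scale) of each of the 6 RNAs in the soluble and insoluble fraction of the 4 treatments, 1 point per library, with the mean and SD of 3 libraries as lines. The insoluble MALAT1 points lie below the soluble ones in every treatment, and those of NEAT1 and KCNQ1OT1 lie above.

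MALAT1 was lower in the insoluble than in the soluble fraction after every treatment, whereas NEAT1 and KCNQ1OT1, also known as nuclear RNAs, were higher. MALAT1 was 2.10-fold lower in Ctrl cells and 3.70-fold lower after NaAsO2, and NEAT1 was 2.23-fold to 5.14-fold higher over the 4 treatments. The values that follow are CPM after TMM scaling, so they give the share of a library and not an amount per cell. Since the libraries are bulk samples, fewer cells with an RNA and less RNA per cell cannot be told apart.

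MALAT1 had 15023, 10684 and 11851 CPM in the Ctrl soluble libraries of replicates 1, 2 and 3, and 6857, 5761 and 5228 in the insoluble ones. After NaAsO2 it had 8207, 7024 and 5992 CPM in the soluble and 2447, 1978 and 1315 in the insoluble fraction. All insoluble values lay below all soluble values of the same treatment, and replicate 3 of the NaAsO2 insoluble group was the lowest of all. After RK-33 the CPM of MALAT1 were 12190.4, 10441 and 7679 in the soluble and 4539, 3996 and 4710.1 in the insoluble fraction. In Combo cells they were 8503, 9793 and 11123 in the soluble and 4021, 4540.3 and 4162 in the insoluble fraction. The fractions did not overlap here either.

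The log2 fold changes of MALAT1, insoluble over soluble, were -1.07 (SE 0.20, adjusted p = 0.000139) in Ctrl, -1.89 (SE 0.21, adjusted p = 5.77e-08) after NaAsO2, -1.19 (SE 0.20, adjusted p = 2.98e-05) after RK-33 and -1.21 (SE 0.20, adjusted p = 2.96e-05) in Combo, by edgeR's quasi-likelihood test with Benjamini-Hochberg adjustment over 17666 genes. Without NaAsO2 insoluble replicate 3 the NaAsO2 change was -1.64 (adjusted p = 9.69e-09). Between 88.8% and 96.1% of the tested genes had a higher fold change. The direction depends on the scale: in TPM, which very short RNAs enter with a large weight, the log2 ratio of the mean MALAT1 levels was 0.03 in Ctrl, -0.31 after NaAsO2, 0.25 after RK-33 and 0.08 in Combo. Genes of at most 400 bases held 57.5% to 73.8% of the TPM in the soluble and 16.2% to 55.8% in the insoluble libraries. Over the genes longer than 400 bases, a limit chosen after seeing the data, the TPM ratios were -0.87, -1.50, -0.85 and -0.92. The other 5 RNAs were higher in the insoluble fraction in TPM over all genes in all 12 lysates. How many of all genes were higher on that scale was not counted. Over the genes longer than 400 bases, the Ctrl ratios were -0.04 for TUG1 and -0.37 for OIP5-AS1.

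NEAT1 had 560.4, 393 and 481 CPM in the Ctrl soluble libraries and 1915, 1558 and 1663 in the insoluble ones. After NaAsO2 it had 328, 386 and 286 CPM in the soluble and 978, 811 and 995 in the insoluble fraction. No insoluble value was as low as a soluble one in either treatment. After RK-33 the CPM of NEAT1 were 514, 508 and 420.5 in the soluble and 2242, 3368 and 1803 in the insoluble fraction, and in Combo cells 554, 621 and 728 in the soluble and 1494, 1564 and 1180.2 in the insoluble fraction. The highest value of all 24 libraries was RK-33 insoluble replicate 2. The log2 fold changes, insoluble over soluble, were 1.84 (SE 0.19, adjusted p = 9.64e-08) in Ctrl, 1.48 (SE 0.19, adjusted p = 7.77e-07) after NaAsO2, 2.36 (SE 0.20, adjusted p = 1.92e-09) after RK-33 and 1.15 (SE 0.19, adjusted p = 2.56e-05) in Combo.

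KCNQ1OT1, of much lower level, had 17.3, 16.8 and 15.4 CPM in the Ctrl soluble libraries and 57.3, 55.2 and 51.7 in the insoluble ones. After NaAsO2 it had 13.7, 15.6 and 14.8 CPM in the soluble and 44.7, 26.04 and 40.8 in the insoluble fraction. After RK-33 it had 14.5, 15.4 and 14.4 in the soluble and 60.6, 69.1 and 63.3 in the insoluble fraction. The fractions did not overlap, and the soluble values of these 3 treatments stayed within 13.7 to 17.3 CPM. In Combo cells KCNQ1OT1 had 32.0, 33.8 and 77.7 CPM in the soluble and 150.03, 148 and 110.4 in the insoluble fraction, so that replicate 3 had the highest soluble and the lowest insoluble value. The log2 fold changes, insoluble over soluble, were 1.73 (SE 0.25, adjusted p = 5.8e-06) in Ctrl, 1.34 (SE 0.25, adjusted p = 7.89e-05) after NaAsO2, 2.12 (SE 0.25, adjusted p = 2.26e-07) after RK-33 and 1.51 (SE 0.23, adjusted p = 1.21e-05) in Combo.

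Of the 6 RNAs, 5 passed the test between the fractions in Ctrl, 4 after NaAsO2, 5 after RK-33 and 5 in Combo. The same test called 51%, 57.6%, 59.6% and 52.1% of all tested genes in these treatments, so most genes differed between the fractions. Higher in the insoluble fraction were 3, 3, 4 and 4 of the RNAs, against 24.4%, 27.9%, 29.2% and 24.1% of all genes, and lower were 2, 1, 1 and 1, against 26.6%, 29.7%, 30.4% and 28%. The median log2 fold change over the 17666 genes was within 0.04 of 0 in each treatment. NEAT1 stood near the top of the order of all genes, with 1.72% to 7.38% of genes having a higher fold change, and KCNQ1OT1 with 2.62% to 8.41%.

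**Figure D2:**
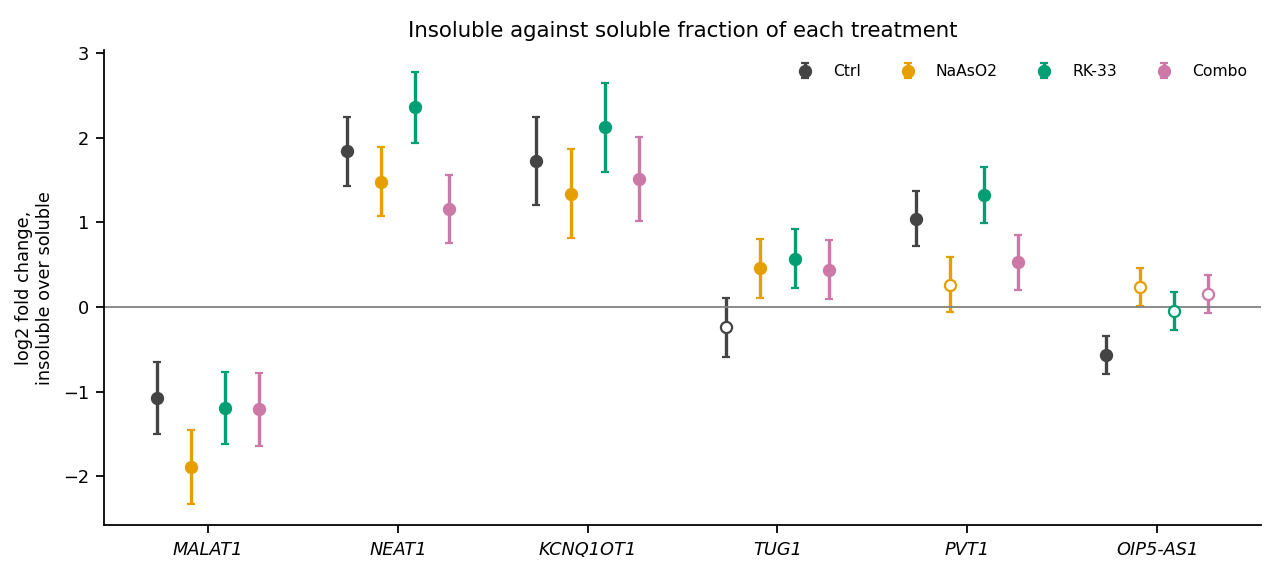
Log2 fold change (insoluble over soluble, exon counts) of each of the 6 RNAs in each treatment, with 95% intervals from the edgeR fit, filled points for an adjusted p under 0.05 and open points for the others. MALAT1 lies below 0 and NEAT1 and KCNQ1OT1 lie above 0 in all 4 treatments, and the interval of PVT1 after NaAsO2 holds 0.

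The ratio of 2 RNAs within a library does not depend on the scaling, and it was compared between the fractions of the 12 lysates with an exact two-sided sign-flip permutation test. The exon counts of MALAT1 were 26.2 times those of NEAT1 in the Ctrl soluble and 3.47 times in the Ctrl insoluble fraction, as geometric means of 3 libraries. After NaAsO2 the ratios were 21.2 and 2.00, after RK-33 20.7 and 1.84, and in Combo 15.5 and 3.02. The log2 ratio of MALAT1 to NEAT1 fell by 3.04 ± 0.60 (SD, n = 12) from the soluble to the insoluble fraction, and it fell in all 12 lysates. The exact p was 0.000488, the smallest that 12 lysates can give, and 0.000732 after adjustment over the 3 pairs of RNAs. For MALAT1 against KCNQ1OT1 the difference was -3.04 ± 0.51 (SD, n = 12), with the same exact p. For NEAT1 against KCNQ1OT1 it was 0.01 ± 0.42 (SD, n = 12; exact p = 0.956), above 0 in 8 of 12 lysates. By treatment, this last difference was 0.12 in Ctrl, 0.18 after NaAsO2, 0.20 after RK-33 and -0.47 in Combo.

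**Figure D3:**
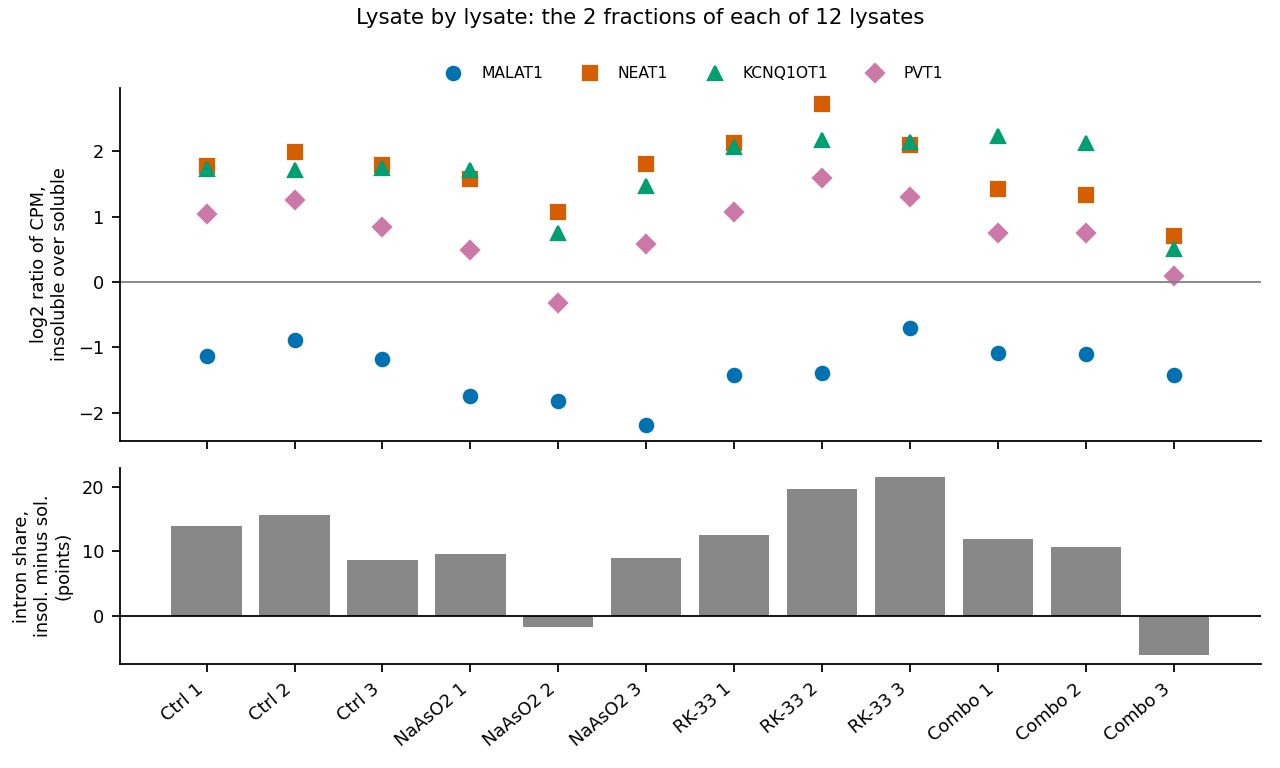
Upper panel: log2 ratio of insoluble to soluble CPM of MALAT1, NEAT1, KCNQ1OT1 and PVT1 in each of the 12 lysates; lower panel: the intron share of the insoluble minus that of the soluble fraction, in percentage points. NaAsO2 replicate 2 and Combo replicate 3, whose bars lie below 0, have the lowest KCNQ1OT1 and PVT1 ratios.

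Lysates differed in these ratios and in the share of counts in introns. Whether both went together over the 12 lysates was not tested. In the insoluble fraction, introns held 8.74 to 21.5 percentage points more of the counts than in the soluble fraction in 10 lysates, but the difference was -1.63 points in NaAsO2 replicate 2 (18.9% soluble, 17.2% insoluble) and -6.09 points in Combo replicate 3 (28.4% and 22.3%). The log2 ratio of insoluble to soluble CPM of NEAT1 had its lowest values in these lysates, 1.07 and 0.70, against a median of 1.78 over 12. KCNQ1OT1 had 0.74 and 0.51 against a median of 1.73, and PVT1 had -0.32 and 0.09 against a median of 0.80. MALAT1 was at -1.83 and -1.42 there, within its range of -2.19 to -0.71 over all lysates. The intron share of a library follows unspliced RNA of many genes, and the part of nuclear material in these ratios was not tested.

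The other RNAs were divided in other ways. PVT1, on chromosome 8, with soluble values of 104 to 194 CPM, had insoluble values of 229 to 259 CPM in Ctrl, 107 to 167 after NaAsO2, 320.2 to 394 after RK-33 and 206 to 255 in Combo. Its log2 fold change, insoluble over soluble, was 1.04 (SE 0.15, adjusted p = 8.87e-06) in Ctrl, 1.32 (adjusted p = 2.37e-07) after RK-33 and 0.53 (adjusted p = 0.00605) in Combo. After NaAsO2 the fractions overlapped, and the change of 0.26 did not pass the test (adjusted p = 0.147); without insoluble replicate 2 it was 0.42 (adjusted p = 0.0215). It also passed with exon plus intron counts as the measure (0.76, adjusted p = 0.000636) and under the stricter filter of 5 CPM (0.40, adjusted p = 0.032).

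TUG1 had 118 to 188 CPM in the soluble libraries, and in the insoluble ones 145 to 151 in Ctrl, 122 to 227 after NaAsO2, 198 to 220.3 after RK-33 and 171 to 235 in Combo. In Ctrl its log2 fold change of -0.24 did not pass (adjusted p = 0.226), but it passed without NaAsO2 insoluble replicate 3 (-0.29, adjusted p = 0.0188). It was higher in the insoluble fraction after NaAsO2 (0.46, adjusted p = 0.0202), RK-33 (0.57, adjusted p = 0.0048) and Combo (0.44, adjusted p = 0.028). The NaAsO2 call was lost without soluble replicate 3, insoluble replicate 1 or insoluble replicate 2 (0.35 to 0.44, adjusted p 0.0543 to 0.103), and the Combo call without any 1 of 7 of the 24 libraries (adjusted p 0.0506 to 0.166). NaAsO2 insoluble replicate 3 had 122 CPM of TUG1 against 227 and 218 in the other replicates, and without it the NaAsO2 change was 0.73 (adjusted p = 2.09e-06). With exon plus intron counts as the measure, the RK-33 change did not pass (0.31, adjusted p = 0.121) and the Ctrl change did (-0.46, adjusted p = 0.0273). The Ctrl change also passed with the compared groups alone (-0.25, adjusted p = 0.0102), while in TPM the Ctrl ratio was 0.87 over all genes and -0.04 over those longer than 400 bases.

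OIP5-AS1 was lower in the insoluble fraction in Ctrl, with 82.9, 83.1 and 78.4 CPM soluble and 54.1, 53.9 and 56.5 insoluble (log2 fold change -0.57, SE 0.11, adjusted p = 0.000136). In TPM the log2 ratio was 0.55 over all genes, higher in 3 of 3 Ctrl lysates, and -0.37 over the genes longer than 400 bases. After NaAsO2 it had 81.0, 75.5 and 78.5 CPM soluble and 93.8, 87.7 and 95.2 insoluble, so that all insoluble values were the higher ones. That change of 0.24 did not pass the test (adjusted p = 0.0602), but it passed without any 1 of 14 of the 24 libraries (0.24 to 0.32, adjusted p 0.00695 to 0.0416) and with RLE factors, genes of at least 5 CPM or DESeq2 (0.30 to 0.38). After RK-33 and in Combo the fractions overlapped, with log2 fold changes of -0.05 (adjusted p = 0.718) and 0.15 (adjusted p = 0.236). The RK-33 change passed with exon plus intron counts as the measure (-0.31, adjusted p = 0.0195).

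The introns of PVT1 gave 3371 to 23986 counts per library, several times its exon counts. In CPM of the intron table they had a mean of 1840.5 ± 80.7 in the Ctrl soluble and 3092 ± 37.2 in the Ctrl insoluble fraction (SD, n = 3), and the fractions did not overlap in any treatment. The log2 fold changes, insoluble over soluble, were 0.75 (adjusted p = 6.48e-05) in Ctrl, 0.69 (adjusted p = 0.000296) after NaAsO2, 1.06 (adjusted p = 2.7e-07) after RK-33 and 0.70 (adjusted p = 0.000186) in Combo, where 39.6%, 22.8%, 47.8% and 29.9% of the intron features tested were called. Within a library, the log2 ratio of PVT1 intron to exon counts was higher in the insoluble fraction by 0.52 ± 0.23 (SD, n = 12), in 12 of 12 lysates (exact two-sided sign-flip p = 0.000488). The same ratio of all genes together was higher there by 0.83 ± 0.62 (SD, n = 12), in 10 of 12 lysates, so the change of PVT1 was below that of the whole libraries on average.

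After NaAsO2 the share of MALAT1 fell in both fractions and that of NEAT1 and PVT1 in the insoluble fraction, and OIP5-AS1 rose there. In the insoluble fraction, MALAT1 changed by -1.64 (SE 0.20, adjusted p = 3.17e-06), NEAT1 by -0.88 (SE 0.19, adjusted p = 0.000906), PVT1 by -0.81 (SE 0.15, adjusted p = 0.00031) and OIP5-AS1 by 0.75 (SE 0.11, adjusted p = 1.5e-05) on the log2 scale. The Ctrl and NaAsO2 insoluble libraries of these 4 RNAs did not overlap, and neither did those of KCNQ1OT1. The share of all genes without overlap was not counted. The test called 43.1% of all genes in this comparison, 21.2% higher and 21.8% lower, against 1 and 3 of the 6 RNAs. KCNQ1OT1 (-0.56, adjusted p = 0.0589) and TUG1 (0.36, adjusted p = 0.0828) did not pass. Without NaAsO2 insoluble replicate 3, all 6 passed, MALAT1 with -1.36 (adjusted p = 1.28e-06), KCNQ1OT1 with -0.57 (adjusted p = 0.0487) and TUG1 with 0.66 (adjusted p = 3.79e-05). In that fit 22.3% of all genes were called higher and 20.3% lower. The KCNQ1OT1 call was also gained without NaAsO2 insoluble replicate 1 (adjusted p = 0.0441) or Combo soluble replicate 3 (adjusted p = 0.0087), and the TUG1 call without any 1 of 8 libraries or with exon plus intron counts as the measure (0.65, adjusted p = 0.00465).

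In the soluble fraction, NaAsO2 changed 1 of the 6 RNAs by the test, MALAT1, with -0.82 (SE 0.20, adjusted p = 0.00888), where 13.3% of all genes were called, 6.31% higher and 7% lower. All 3 NaAsO2 values lay below the Ctrl values, but the call was lost without Ctrl soluble replicate 1 (-0.67, adjusted p = 0.0737) or NaAsO2 soluble replicate 3 (-0.72, adjusted p = 0.065). NEAT1 had -0.52 (adjusted p = 0.0697), with all NaAsO2 values below those of Ctrl, and passed without any 1 of 8 libraries, NaAsO2 insoluble replicate 3 among them (-0.53, adjusted p = 0.0183). Without that replicate TUG1 also passed in the soluble fraction (-0.36, adjusted p = 0.0105).

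The difference between the fractions itself differed between NaAsO2 and Ctrl cells for 4 of the 6 RNAs, where 22.3% of all genes were called, 11% higher and 11.4% lower. On the log2 scale, the insoluble-over-soluble change was lower after NaAsO2 by the interaction term for MALAT1 (-0.81, SE 0.28, adjusted p = 0.0411) and PVT1 (-0.78, SE 0.22, adjusted p = 0.0122). It was higher for TUG1 (0.70, SE 0.23, adjusted p = 0.0324) and OIP5-AS1 (0.81, SE 0.15, adjusted p = 0.000515). For NEAT1 it was -0.36 (adjusted p = 0.348) and for KCNQ1OT1 -0.39 (adjusted p = 0.446). The OIP5-AS1 call held without each of the 24 libraries in turn. The MALAT1 call was lost without any 1 of 16 of them (adjusted p 0.0505 to 0.217), NaAsO2 insoluble replicate 3 among them (-0.53, adjusted p = 0.104). The TUG1 call was lost without any 1 of 7 (adjusted p 0.0547 to 0.0764), and the PVT1 call without Ctrl soluble replicate 2 (-0.55, adjusted p = 0.0836). Without NaAsO2 insoluble replicate 3 the TUG1 value was 1.02 (adjusted p = 1.02e-05). With exon plus intron counts as the measure, MALAT1 (-0.64, adjusted p = 0.109) and PVT1 (-0.39, adjusted p = 0.241) did not pass.

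RK-33 alone left the soluble levels of the 6 RNAs without a call. By edgeR 0 of 6 passed, where 5.33% of all genes were called, 2.09% higher and 3.24% lower. An unadjusted p under 0.05 was found for 1 of 6, and DESeq2 called 1. The shares of all genes by these 2 measures are not given. That RNA was OIP5-AS1, at 61.3 to 67.7 CPM after RK-33 and 78.4 to 83.1 in Ctrl (log2 fold change -0.31, adjusted p = 0.0942), which passed without NaAsO2 insoluble replicate 3 (adjusted p = 0.0272), as did TUG1 (-0.32, adjusted p = 0.0355). In the insoluble fraction, where 13.9% of all genes were called, 5.71% higher and 8.19% lower, PVT1 (0.50, SE 0.15, adjusted p = 0.0305) and TUG1 (0.49, SE 0.16, adjusted p = 0.0489) were higher than in Ctrl, with no overlap of the groups. MALAT1 (-0.43, adjusted p = 0.169) and KCNQ1OT1 (0.23, adjusted p = 0.583) did not pass, and their groups did not overlap either. How many of all genes had no overlap in this comparison was not counted, so the lack of overlap does not set these RNAs apart. The PVT1 call was lost without any 1 of the 3 Ctrl insoluble libraries or RK-33 insoluble replicate 2 (0.40 to 0.54, adjusted p 0.0583 to 0.161), and the TUG1 call without any 1 of 18 libraries. The PVT1 introns also rose there (0.47, adjusted p = 0.0421, where 2.8% of intron features were called), and that call was lost without any 1 of 15 libraries. NEAT1 had a log2 fold change of 0.53 that did not pass (adjusted p = 0.0648), but it passed without NaAsO2 insoluble replicate 3 (0.54, adjusted p = 0.017), RK-33 insoluble replicate 3 (0.72, adjusted p = 0.0181) or Combo insoluble replicate 3 (0.54, adjusted p = 0.0494). For the difference between the fractions, RK-33 against Ctrl gave 0 calls by edgeR, where 2.18% of all genes were called, 0.606% higher and 1.58% lower. An unadjusted p under 0.05 was found for 2 RNAs, and DESeq2 called 2, again without shares of all genes. These were TUG1 (0.81, adjusted p = 0.0675) and OIP5-AS1 (0.52, adjusted p = 0.0691), and both passed without NaAsO2 insoluble replicate 3 (adjusted p = 0.000571 and 0.0125).

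KCNQ1OT1 rose in Combo cells in both fractions, against NaAsO2 alone and against RK-33 alone. Its Combo libraries had 32.0 to 77.7 CPM in the soluble fraction, above the 13.7 to 17.3 CPM of all 9 other soluble libraries, and 110.4 to 150.03 CPM in the insoluble fraction, above the 26.04 to 69.1 CPM of all 9 others. Against NaAsO2 the log2 fold change was 1.70 (SE 0.25, adjusted p = 0.000133) in the soluble and 1.88 (SE 0.24, adjusted p = 2.63e-05) in the insoluble fraction. Against RK-33 it was 1.69 (SE 0.25, adjusted p = 0.000127) and 1.08 (SE 0.23, adjusted p = 0.00541). Without Combo soluble replicate 3, the highest soluble value, the soluble changes were 1.21 against NaAsO2 and 1.14 against RK-33, and both passed.

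The joint effect, the change with both agents beyond the sum of the changes with each on the log2 scale, was tested after these values were seen. For KCNQ1OT1 it was 1.86 (SE 0.35, adjusted p = 0.00573) in the soluble and 1.64 (SE 0.33, adjusted p = 0.00285) in the insoluble fraction, where 2.09% and 11.6% of all genes were called, 1.58% and 6.22% higher and 0.509% and 5.43% lower. The soluble count was 1 of 6 RNAs and the insoluble count 3 of 6, with MALAT1 (1.58, SE 0.28, adjusted p = 0.00119) and OIP5-AS1 (-0.54, SE 0.15, adjusted p = 0.0212). NEAT1 had a soluble joint effect of 0.92 that did not pass (adjusted p = 0.0707), but passed without any 1 of 7 libraries. Without NaAsO2 insoluble replicate 3, joint effects also passed for MALAT1 (0.81, adjusted p = 0.0199) and TUG1 (0.48, adjusted p = 0.0315) in the soluble and for TUG1 (-0.68, adjusted p = 0.00267) in the insoluble fraction.

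**Figure D4:**
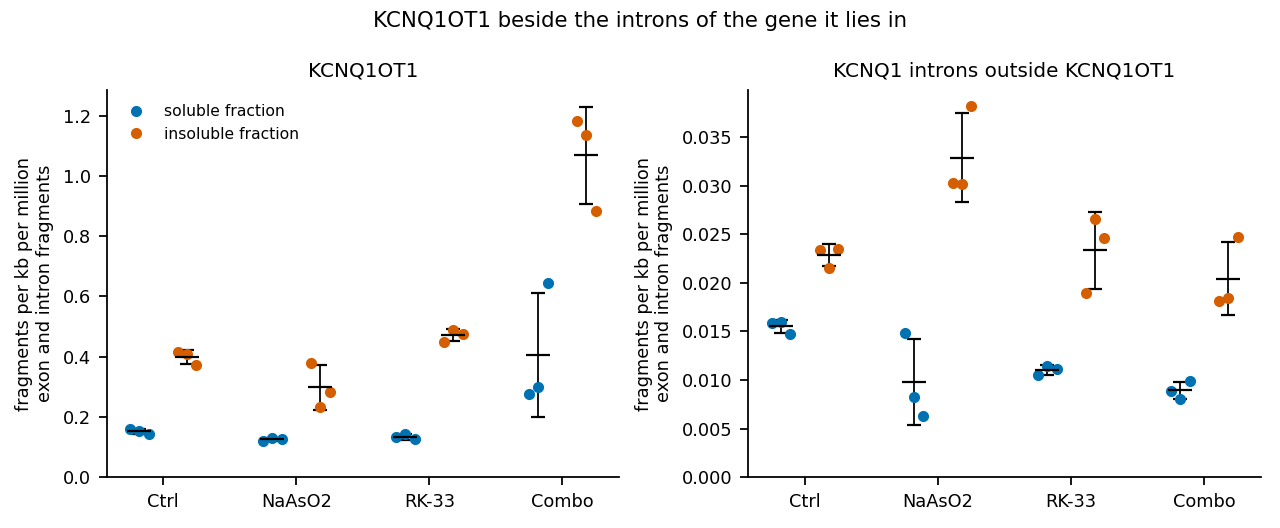
KCNQ1OT1 (left) and the KCNQ1 introns outside it (right) in each library, as fragments per kb scaled to the library's exon and intron fragments, on linear scales that differ between the panels, with the mean and SD of 3 libraries as lines. The KCNQ1OT1 points of Combo lie above those of the other treatments in the same fraction, and the KCNQ1 intron points do not.

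The counting used no strand, so fragments of KCNQ1 pre-mRNA inside the KCNQ1OT1 interval and fragments of KCNQ1OT1 cannot be told apart. The KCNQ1 introns outside that interval give a level beside it: per kb they had 1.53% to 13.6% of the KCNQ1OT1 counts, from 27 to 168 counts per library. KCNQ1OT1 per kb was 9.61 to 10.1 times the KCNQ1 introns in the Ctrl soluble and 15.8 to 18.98 times in the Ctrl insoluble libraries, and 31.3 to 65.2 and 35.7 to 65.2 times in the Combo libraries. The KCNQ1 introns were higher in the insoluble fraction after NaAsO2 than in Ctrl (1.16, adjusted p = 0.000575) and lower in Combo than after NaAsO2 (-0.92, adjusted p = 0.00433). KCNQ1OT1 had a change of -0.56, which did not pass, and a rise of 1.88 in these 2 comparisons.

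Other RNAs also differed between Combo and NaAsO2 cells. In the soluble fraction 3 of 6 passed, all higher, where 6.46% of all genes were called, 4.79% higher and 1.67% lower: NEAT1 (0.93, SE 0.19, adjusted p = 0.004), KCNQ1OT1 and PVT1 (0.51, adjusted p = 0.0499). In the insoluble fraction 5 of 6 passed, where 13.8% were called, 6.88% higher and 6.9% lower. MALAT1 (1.15, SE 0.20, adjusted p = 0.000926), NEAT1 (0.61, adjusted p = 0.0363), KCNQ1OT1 and PVT1 (0.77, adjusted p = 0.00261) were higher in Combo, and OIP5-AS1 was lower (-0.34, adjusted p = 0.0375). The soluble PVT1 call was lost without any 1 of 10 libraries, the insoluble NEAT1 call without any 1 of 5 (adjusted p 0.0536 to 0.169) and the OIP5-AS1 call without any 1 of the 3 Combo insoluble libraries (adjusted p 0.0524 to 0.0908). MALAT1 had a soluble change of 0.47 that did not pass (adjusted p = 0.161), and passed without NaAsO2 insoluble replicate 3 (0.50, adjusted p = 0.0292). Without that library the insoluble MALAT1 change was 0.89 (adjusted p = 0.00156). Fitted with the compared groups alone, with a spread estimated from 6 libraries, the insoluble comparison called 0 of 6 RNAs and 19 genes in all. The soluble comparison then called 5 of 6 RNAs, and the share of all genes it called is not given.

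Between Combo and RK-33 cells, 1 of 6 RNAs passed in the soluble fraction, KCNQ1OT1, where 3.65% of all genes were called, 2.9% higher and 0.742% lower. In the insoluble fraction 3 of 6 passed, where 7.12% were called, 4.17% higher and 2.95% lower: KCNQ1OT1 rose, and NEAT1 (-0.81, SE 0.19, adjusted p = 0.0103) and PVT1 (-0.54, SE 0.15, adjusted p = 0.0332) fell. The NEAT1 call was lost without RK-33 insoluble replicate 2 (-0.52, adjusted p = 0.126) or Combo insoluble replicate 3 (-0.69, adjusted p = 0.0543), and the PVT1 call without any 1 of the 6 compared libraries (adjusted p 0.0519 to 0.191). The difference between the fractions, Combo against NaAsO2, passed for 0 of 6 RNAs by edgeR. That test called 0.357% of all genes, 0.136% higher and 0.221% lower. Of the RNAs, 1 had an unadjusted p under 0.05 and DESeq2 called 0, and the shares of all genes by these measures are not given.

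Lists of related genes give the surroundings of these values. Of 15 other lncRNAs listed here as nuclear or bound to chromatin, a location that was not measured, 11 were tested. In the insoluble fraction, 4, 3, 5 and 3 of them were higher and 1 in each case lower in Ctrl, NaAsO2, RK-33 and Combo cells. Their median log2 fold changes were 0.60, 0.12, 0.59 and 0.12. Of all genes, 24.4%, 27.9%, 29.2% and 24.1% were higher and 26.6%, 29.7%, 30.4% and 28% lower. SNHG14, a long transcript of the imprinted Prader-Willi region, was higher in all 4 (0.62 to 0.97), and MIAT was lower in all 4 (-0.72 to -0.52), so that this list, like MALAT1 and NEAT1, held RNAs of both directions. The MIAT calls were lost without any 1 of 4 libraries in Ctrl, 1 after NaAsO2, 5 after RK-33 and 5 in Combo (-0.58 to -0.30, adjusted p 0.0514 to 0.268). PURPL, a p53-induced lncRNA, did not pass in any of them (-0.34 to 0.29), and passed after RK-33 without RK-33 soluble replicate 1 (0.45, adjusted p = 0.0441). After NaAsO2, 7 of the 11 were lower and 1 was higher than Ctrl in the insoluble fraction, against 21.8% and 21.2% of all genes (median -0.85, against -0.02 over all genes). Without NaAsO2 insoluble replicate 3 they were 6 and 1, against 20.3% and 22.3%.

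Of 16 lncRNAs known as mostly cytoplasmic, 15 were tested, and 9, 9, 7 and 10 had lower and 2, 2, 3 and 2 had higher insoluble than soluble levels in the 4 treatments, with medians of -0.42, -0.84, -0.36 and -0.71. The shares of all genes were again 26.6% to 30.4% lower and 24.1% to 29.2% higher. Without NaAsO2 insoluble replicate 3, 11 were lower and 2 higher after NaAsO2 (median -1.07), against 32.4% and 28.7% of all genes. NORAD, which binds PUMILIO proteins, had changes of -0.38 in Ctrl, 1.82 after NaAsO2 and 1.14 in Combo that passed and -0.01 after RK-33 that did not. MIR4435-2HG was higher in all 4 (0.67 to 1.23), and CYTOR passed after RK-33 alone of the 4 (0.77). The nuclear and cytoplasmic lists were not compared by a test.

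Of 14 mRNAs of paraspeckle and speckle proteins, all tested, 6 rose and 3 fell from the soluble to the insoluble fraction in Ctrl, and 2 were higher and 9, 8 and 9 lower after NaAsO2, RK-33 and in Combo, beside the same shares of all genes. Without NaAsO2 insoluble replicate 3, 2 were higher and 11 lower after NaAsO2, against 28.7% and 32.4% of all genes. SON and SRRM2, which encode the scaffold proteins of speckles, were higher in all 4 (1.37 to 1.87 and 0.30 to 1.21). SFPQ, a paraspeckle protein, was higher in Ctrl (0.37) and lower after NaAsO2 (-0.83) and in Combo (-0.64), and its Ctrl call was lost without any 1 of 8 libraries (0.28 to 0.31, adjusted p 0.065 to 0.145). Its NaAsO2 change was -0.60 without NaAsO2 insoluble replicate 3 (adjusted p = 3.02e-06). After RK-33 SFPQ had -0.27 (adjusted p = 0.0715) and passed without NaAsO2 insoluble replicate 1, NaAsO2 insoluble replicate 3 or Combo insoluble replicate 3 (-0.31 each).

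Of 14 small nuclear and nucleolar RNAs, 7 were tested, with 1, 3, 2 and 3 higher and 0, 1, 1 and 1 lower, where 24.1% to 29.2% of all genes were higher and 26.6% to 30.4% lower. Without NaAsO2 insoluble replicate 3, 0 were higher and 3 lower after NaAsO2, against 28.7% and 32.4% of all genes. RMRP, the RNA of RNase MRP, was lower after NaAsO2 (-1.34), RK-33 (-0.39) and in Combo (-0.72), and the RK-33 call was lost without RK-33 soluble replicate 3 (-0.20, adjusted p = 0.279) or any 1 of the RK-33 insoluble libraries. SNORD3A, the U3 RNA of rRNA processing, had 3.17 after NaAsO2, which rested on insoluble replicate 3: it had 2212 CPM there, against 151 and 91.2 in the other insoluble replicates, and without it the change was 0.45 and did not pass (adjusted p = 0.0539). Without that library SNORD3A passed in Ctrl (1.49, adjusted p = 3.63e-08), RK-33 (1.56) and Combo (1.85), while with all libraries its Ctrl change of 1.53 did not pass (adjusted p = 0.0523), and its RK-33 (1.60) and Combo (1.90) calls were lost without any 1 of 6 and any 1 of 3 libraries. SNORA73B had 0.87 after NaAsO2, which was 0.14 without insoluble replicate 3 (adjusted p = 0.577) and also lost its call without soluble replicate 1 or 3. It was higher in Combo (1.04), a call lost without Combo insoluble replicate 2 (0.80, adjusted p = 0.0513). Without NaAsO2 insoluble replicate 3 it passed in Ctrl (0.44, adjusted p = 0.0312) and after RK-33 (0.54, adjusted p = 0.00765).

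Of 6 genes beside the RNAs, 5 were tested, of which 1, 2, 1 and 2 were higher and 1 in each treatment lower, beside the same shares of all genes. MORC2, beside TUG1, was higher in all 4 (0.86 to 1.38). FRMD8, beside NEAT1, was higher after NaAsO2 (1.57) and in Combo (0.82). Its NaAsO2 change was 0.92 without insoluble replicate 3 (adjusted p = 9.75e-06), its Combo call was lost without Combo insoluble replicate 3 (0.45, adjusted p = 0.171), and in Ctrl it passed without NaAsO2 insoluble replicate 3 (0.35, adjusted p = 0.0371).

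Over the 24 libraries the log2 CPM of NEAT1 and PVT1 had a Pearson r of 0.93, NEAT1 and KCNQ1OT1 0.82, and MALAT1 and NEAT1 -0.49. These are descriptions over libraries that share treatments, fractions and scaling, and OIP5-AS1 had r of -0.58 to 0.20 with the other RNAs. Among 12176 genes that averaged 5 CPM or more, the patterns most like MALAT1 were those of LSM8 (r = 0.96), KCNA1 (0.95) and SNHG3 (0.95). For NEAT1 they were ENSG00000224271, POTEH and SMG1P3 (0.98 each), and for KCNQ1OT1 PPIEL, TCF7 and ADCY2 (0.94 each). For TUG1 they were ATXN7 (0.93), ZNF451 (0.91) and PDP1 (0.90), for PVT1 ENSG00000259848 (0.96), GOLGA2P11 (0.95) and ENSG00000224271 (0.95), and for OIP5-AS1 PURB (0.89) and HDGFL3 (0.87). ENSG00000224271 appeared among the closest for both NEAT1 and PVT1.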

How the data were processed

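From 12 U2OS lysates, RNA of a soluble and an insoluble fraction gave 24 rRNA-depleted libraries, assigned to 8 groups of 3 by their labels. The authors aligned paired reads to GRCh38 with STAR 2.7.2b and deposited raw counts of uniquely mapped fragments per gene, made with featureCounts 1.5.3 for GENCODE release 40, in an exon table and an intron table. Introns were genes minus merged exons, a fragment needed an overlap of 25 bases, and no strand was used, although the library kit is directional. Reads of overlapping or antisense genes were therefore not separated, and genes split over lines were rejoined (1 in the exon table, 21 in the intron table). No column of another sample was used.

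Counts were tested with edgeR 4.0.16 in R 4.3.3 (quasi-likelihood test, TMM scaling, mean of at least 1 CPM, 8 groups in 1 fit with 16 residual degrees of freedom, Benjamini-Hochberg adjustment over all genes tested). A call is an adjusted p under 0.05 with no fold limit. Alternatives were edgeR's likelihood ratio test (used in the study), DESeq2 1.42.0, other scalings, filters and measures, a replicate block, the compared groups alone and leaving out each library. Ratios within a library were compared over lysates, paired by replicate number as in the study's methods, with exact sign-flip tests (Python 3.11.15, numpy 2.4.6, pandas 2.3.3, scipy 1.17.1), with 0.5 added to intron and exon counts. Figures were drawn with matplotlib 3.10.9. The scripts were tested on simulated data. Sequences were read from GRCh38.

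Named were the 6 RNAs, the 3 genes of each comparison list with the highest mean CPM, and for each RNA the 3 most correlated genes that average 5 CPM or more (log2 CPM, prior count 2). Of the genes this rule names, 2 are not reported here. The RNAs and lists were chosen with earlier results of these data known. The study repeated the experiment for each replicate, but the labels name no cultures, so p-values measure the spread between these samples, which may be technical in part. No replicates agreed within sampling noise (chi-square of 2.39 to 142 for each degree of freedom). The highest values were those of replicate 3 against the others in NaAsO2 insoluble (142 and 130), RK-33 soluble (32.4 and 23.1) and Combo insoluble (25.5 and 32.1). Spike-ins were not used here.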

Additional observations from a re-analysis of the deposited data

Results flagged for a closer look

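The difference between the fractions changed with NaAsO2 for 4 of the 6 RNAs by the test of the interaction itself (edgeR, quasi-likelihood test, adjusted over all genes): MALAT1 by -0.81, TUG1 by 0.70, PVT1 by -0.78 and OIP5-AS1 by 0.81 on the log2 scale. The same test called 22.3% of all genes. OIP5-AS1 was lower in the insoluble fraction in 3 of 3 Ctrl lysates and higher in 3 of 3 NaAsO2 lysates in CPM, and in TPM over all genes it was higher in 3 of 3 of both. In CPM MALAT1 was lower in the insoluble fraction in all 6 of these lysates.

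The response to NaAsO2 differed between cells with and without RK-33 by the joint effect of the 2 agents, a test added after the values of KCNQ1OT1 were seen. In the soluble fraction it was 1.86 for KCNQ1OT1. In the insoluble fraction it was 1.64 for KCNQ1OT1, 1.58 for MALAT1 and -0.54 for OIP5-AS1. KCNQ1OT1 was higher in all 3 Combo libraries than in all 9 other libraries of the same fraction, while insoluble MALAT1 in Combo (4021 to 4540.3 CPM) lay within the range of RK-33 (3996 to 4710.1 CPM) and above NaAsO2 (1315 to 2447 CPM). The cause of these differences was not tested.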

How the results depend on the processing

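Of the counts of RNAs called and the ratios, 143 values under other settings stayed close to those reported and 35 counts moved by over 1.5 times. The numbers of the 6 RNAs called were then as follows. They stand without shares of all genes, so they do not show how the RNAs compare with all genes. With a fold limit of 2, 3 were called between the fractions in Combo, 0 and 1 for NaAsO2 against Ctrl in the soluble and insoluble fraction, 0 for RK-33 against Ctrl in the insoluble fraction, 1 and 2 for Combo against NaAsO2, 1 for Combo against RK-33 in the insoluble fraction and 0 for the NaAsO2 interaction. For NaAsO2 against Ctrl in the soluble fraction, 2 were called with library size alone, no filter, a mean of at least 5 CPM or DESeq2, and 3 with the compared groups alone. For RK-33 against Ctrl in the insoluble fraction, 1 was called with library size alone, RLE factors, exon plus intron counts or no filter, and 5 with the compared groups alone. In the soluble fraction the latter comparison gave 1 with at least 5 CPM, DESeq2 or the compared groups alone. The soluble joint effect gave 2 with library size alone, no filter, at least 5 CPM, the likelihood ratio test or DESeq2, and 4 with the compared groups alone. The NaAsO2 interaction gave 2 with exon plus intron counts and 1 with the compared groups alone. The RK-33 interaction gave 2 with at least 5 CPM, DESeq2 or the compared groups alone, and 1 with the likelihood ratio test. Combo against NaAsO2 gave 5 soluble and 0 insoluble calls with the compared groups alone. With them PVT1 also lost its call for NaAsO2 against Ctrl in the insoluble fraction (-0.75, adjusted p = 0.0501). For single RNAs, 51 values gained and 37 lost a call under these settings. The cause of these moves was not tested.

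Small log2 changes that passed no test turned sign. For OIP5-AS1 these were 0.041 between the RK-33 fractions (at least 5 CPM), 0.060 for NaAsO2 against Ctrl in the soluble fraction and -0.11 for the soluble joint effect (exon plus intron counts), and for Combo against RK-33 in the soluble fraction -0.0031 (RLE factors), -0.046 (exon plus intron counts), -0.014 (no filter), -0.0036 (DESeq2) and -0.0014 (compared groups alone). For NEAT1 they were -0.060 (library size alone) and -0.021 (at least 5 CPM) for soluble RK-33 against Ctrl, and -0.040 for the insoluble joint effect (exon plus intron counts). For insoluble Combo against RK-33 they were 0.091 and 0.011 for MALAT1 and 0.12 and 0.036 for TUG1 (exon plus intron counts and no filter), and 0.0021 for TUG1 with the compared groups alone. TUG1 had -0.036 for insoluble Combo against NaAsO2 (exon plus intron counts). The PVT1 introns, scaled to exon plus intron counts, had -0.21 for soluble NaAsO2 against Ctrl, -0.070 for the Combo interaction and 0.035 for the insoluble joint effect.

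The replicate numbers did not pair the 2 fractions: same-numbered libraries of the 2 fractions deviated together (r over 0.1) in 1 of 12 pairs (r -0.29 to 0.11). Those of 1 fraction did so in 9 of 36 pairs (r -0.31 to 0.67), and those differing in fraction and treatment in 8 of 36 (r -0.20 to 0.46). Within 1 fraction the highest were insoluble NaAsO2 and Combo, with r of 0.46, 0.38 and 0.67 for replicates 1, 2 and 3. With the replicate number as a block, 5, 4, 5 and 5 RNAs were called between the fractions, as without it. The block ended the calls of TUG1 for the NaAsO2 interaction (0.65, adjusted p = 0.0521), of PVT1 for soluble Combo against NaAsO2 (0.51, adjusted p = 0.0605) and of the PVT1 introns for insoluble RK-33 against Ctrl (0.47, adjusted p = 0.0621), and TUG1 had 0.022 for the Combo interaction. With no replicate block, permuting the fractions of 24 libraries left the ratios of MALAT1 past the test (permutation p adjusted over 3 pairs = 3e-05, the smallest 100000 draws can give).

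Leaving out each library in turn gave the following counts, without shares of all genes beside them. The calls between the fractions were 5 to 6 in Ctrl, 3 to 5 after NaAsO2, 5 after RK-33 and 4 to 5 in Combo. For NaAsO2 against Ctrl they were 0 to 3 soluble and 4 to 6 insoluble, for RK-33 against Ctrl 0 to 2 and 0 to 3, for Combo against NaAsO2 2 to 4 and 3 to 5, and for Combo against RK-33 1 and 1 to 3. The interactions gave 2 to 4 (NaAsO2), 0 to 2 (RK-33) and 0 (Combo), and the joint effects 1 to 4 soluble and 3 to 4 insoluble. The log2 ratio differences ranged from -3.13 to -2.94 for MALAT1 to NEAT1 and from -3.14 to -2.98 for MALAT1 to KCNQ1OT1, and for NEAT1 to KCNQ1OT1, which did not pass the test, from -0.044 to 0.080. Changes that turned sign ranged for OIP5-AS1 from -0.21 to 0.077 (RK-33 fractions) and -0.040 to 0.027 (soluble Combo against RK-33), and for NEAT1 from -0.13 to 0.14 (soluble RK-33 against Ctrl) and -0.15 to 0.37 (insoluble joint effect). For PVT1 the range was -0.19 to 0.048 and for its introns -0.021 to 0.082 (soluble NaAsO2 against Ctrl), -0.10 to 0.025 (insoluble) and -0.042 to 0.091 (Combo interaction). For MALAT1 it was -0.21 to 0.11 and -0.13 to 0.014 (soluble and insoluble Combo against RK-33) and -0.28 to 0.042 (RK-33 interaction). For TUG1 it was -0.18 to 0.22 (insoluble Combo against NaAsO2), -0.0016 to 0.21 and -0.11 to 0.083 (Combo against RK-33) and -0.34 to 0.10 (Combo interaction), and for KCNQ1OT1 -0.16 to 0.64 (Combo interaction). Of the list genes, added after seeing the data, CYTOR ranged from -0.12 to 0.032 between the NaAsO2 fractions, PURPL from -0.13 to 0.061 in Combo and NORAD from -0.080 to 0.031 after RK-33. The KCNQ1 introns had 27 to 168 counts per library.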
